A study of Mus musculus with 4 samples.

Results

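The cells described here were Cthrc1 activated fibroblasts of the mouse thoracic aorta, 508 of the 38316 cells in the series. They were chosen by their raw unique molecular identifier (UMI) counts, each UMI standing for 1 captured transcript. A fibroblast gate asked for at least 10 UMIs of Dcn and Lum together, at most 1 of Myh11 and under 10 of Lyz2, C1qa and C1qb together, and 5040 cells passed it. Members also had at least 5 Cthrc1 UMIs, at most 2 of Saa3 and Mmp3, at most 2 of Prg4 and Crabp2, and at most 4 of Cxcl1, Ccl7 and Fst. The last 3 limits, called state gates below, kept out other fibroblast states. The levels of the 14 gate genes are therefore a description of the choice and support nothing. Members were compared with fibroblast-gated cells of the same library in which no Cthrc1 UMI was counted, called Cthrc1 = 0 cells.

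The series held 4 droplet libraries, 1 for each group, and each library pooled the aortas of 3 mice. KO AngII mice lacked Sting in the whole body and received a high fat diet for 5 weeks with an angiotensin II infusion for 7 days. KO saline mice had the same genotype with normal diet and saline. WT AngII and WT saline mice were wild type with the same 2 treatments. AngII below stands for infusion and diet together, which cannot be told apart, and a pool cannot show the spread between mice. With 1 library a group no difference has a replicate check, no test was made and no p-value is given. Intervals are 95% and cover counting error only.

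Cthrc1, collagen triple helix repeat containing 1, is a secreted glycoprotein that is known to be induced in adventitial fibroblasts after arterial injury. In fibrotic tissues Cthrc1 marks fibroblasts that make much fibrillar collagen. Such cells secrete procollagen, trim and crosslink it outside the cell, and surround it with matricellular proteins such as periostin. Sting is an adaptor of cytosolic DNA sensing that drives type I interferon production.

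The AngII libraries had median depths of 9294 (KO) and 9938 (WT) UMIs a cell, against 6071 (KO) and 5888 (WT) in the saline libraries. Tmem173, which encodes STING, gave 578 UMIs in KO AngII against 637 in WT AngII, and 102 in KO saline against 105 in WT saline. It was thus counted at similar numbers in both genotypes. Transcripts were counted at their 3′ ends and the deleted part of the gene was not located here, so this count does not check the genotype labels. Pairs of libraries shared 92 to 148 cell barcodes, and no barcode marked a member in more than 1 library. Leaving out members whose barcode also occurred in another library gave 158 in KO AngII and 335 in WT AngII.

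Members were found almost entirely in the AngII libraries. KO AngII held 162 members among 1851 fibroblast-gated cells, a share of 8.75% (exact binomial interval 7.50 to 10.1). KO saline held none among 505, which allows a share of up to 0.594% (3 counts of the total; the exact binomial interval ends at 0.728%). WT AngII held 342 members among 1672 fibroblast-gated cells, a share of 20.5% (18.5 to 22.5). WT saline held 4 among 1012, a share of 0.395% (0.108 to 1.01). Neither AngII interval overlapped that of its saline library. Those 4 saline cells carried 22696 UMIs in all, too few for a profile, and the results below rest on the AngII libraries.

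Membership rested both on Cthrc1 and on the state gates, and the shares are given for each. Cells with at least 5 Cthrc1 UMIs made up 62.8% (60.6 to 65.0) of fibroblast-gated cells in KO AngII and 56.6% (54.2 to 59.0) in WT AngII. Of these Cthrc1-high cells, 13.9% (11.99 to 16.1) passed the state gates in KO AngII and 36.1% (33.0 to 39.3) in WT AngII. The limit on Cxcl1, Ccl7 and Fst was failed by 940 cells (80.8%) in KO AngII and by 494 (52.2%) in WT AngII. Prg4 and Crabp2 failed 335 and Saa3 and Mmp3 failed 154 in KO AngII, and in WT AngII these limits failed 178 and 95. The gates count UMIs without regard to depth, and the Cthrc1-high cells they removed had medians of 15610 UMIs in KO AngII and 12609 in WT AngII. Members had medians of 9550 in KO AngII and 8764.5 in WT AngII.

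Depth touched these shares, so every cell of at least 5000 UMIs was thinned to 5000 and gated again. This left out 4.11% of fibroblast-gated cells in KO AngII, 65.0% in KO saline, 11.2% in WT AngII and 77.0% in WT saline. After thinning 1504 cells passed the fibroblast gate in KO AngII, 192 in KO saline, 1492 in WT AngII and 238 in WT saline. Since all cells were gated again, these counts can include cells above the gate's upper limits as deposited. In KO saline, WT AngII and WT saline they did. Members then made up 13.9% (12.2 to 15.7) in KO AngII, against 0 of 192 cells in KO saline. They made up 26.1% (23.9 to 28.4) in WT AngII, against 1.26% (0.261 to 3.64) in WT saline. Cthrc1-high cells made up 39.9% (37.4 to 42.4) in KO AngII and 46.8% (44.2 to 49.4) in WT AngII. Of the thinned Cthrc1-high cells, 34.8% (31.0 to 38.8) passed the state gates in KO AngII and 55.9% (52.1 to 59.6) in WT AngII. At 3000 UMIs Cthrc1-high cells made up 20.3% in KO AngII and 31.6% in WT AngII, and 58.3% (51.7 to 64.7) of them passed in KO AngII, against 69.3% (65.0 to 73.3) in WT AngII. KO AngII thus lay below WT AngII each time. The state gates are upper limits on UMIs, so thinning by itself raises the pass shares. How far apart the 2 genotypes lie at different depths is therefore not read here. The order of the Cthrc1-high shares turned round with thinning, and the thinned order was that of the levels below. The members' lower share in KO AngII was seen as deposited and at both thinned depths.

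**Figure D1:**
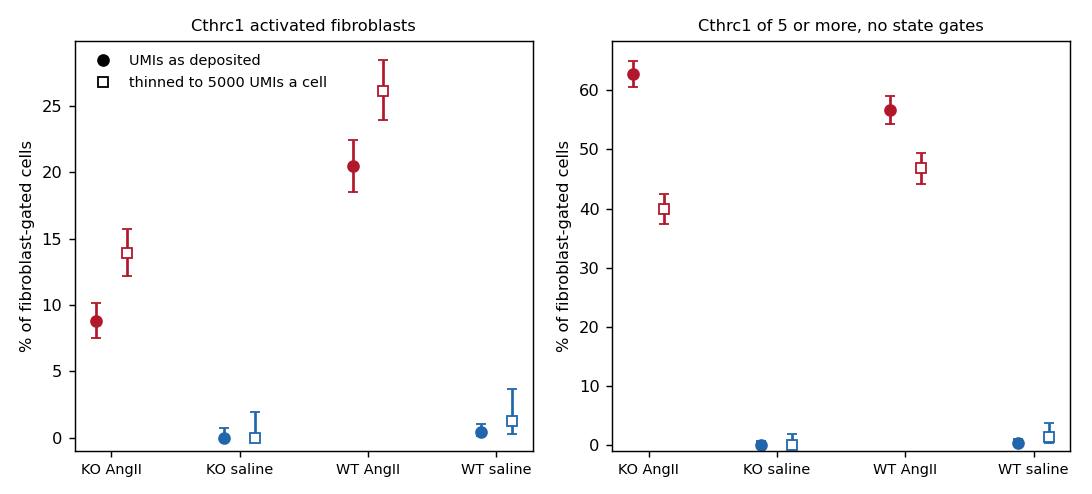
Share of fibroblast-gated cells in each library that were members (left) or had at least 5 Cthrc1 UMIs without the state gates (right), in percent on both vertical axes. Filled circles are UMIs as deposited, open squares cells thinned to 5000 UMIs, and bars exact binomial 95% intervals. As deposited, members made up 8.75% in KO AngII and 20.5% in WT AngII, with 0 in KO saline and 0.395% in WT saline.

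Over all fibroblast-gated cells, Cthrc1 (chromosome 15, 39076932 to 39087121, plus strand, GRCm38) reached 1209 (1195 to 1223) CPM in KO AngII, against 14.6 (10.2 to 20.2) in KO saline. It reached 1623 (1604 to 1642) in WT AngII, against 27.8 (22.9 to 33.4) in WT saline. CPM is the summed UMIs of a gene per 1000000 UMIs of the same cells, with exact Poisson intervals. In phagocyte-gated cells, a cell type not known to make it, Cthrc1 stood at 16.2 in KO AngII and 22.7 in WT AngII. Smooth muscle-gated cells had 10.5 and 10.8. Whether free RNA or doublets gave the counts in phagocyte-gated cells was not tested. A member carried a median of 17 Cthrc1 UMIs (5 to 93) in KO AngII and 15 (5 to 121) in WT AngII.

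Cthrc1 counts formed a continuous range at the limit of 5. Just inside, 16 members in KO AngII and 22 in WT AngII had exactly 5 UMIs. Just outside, 17 cells in KO AngII and 34 in WT AngII had 4 UMIs and passed all other gates. Postn stood at 1716 CPM at 5 UMIs and 764 at 4 in KO AngII, and at 1120 and 678 in WT AngII. For Ddah1 the same levels were 62.9 and 59.9 in KO AngII, and 31.3 and 40.6 in WT AngII. Col8a1 stood at 395 CPM at 5 UMIs and 974 at 4 in KO AngII, and at 419 and 321 in WT AngII. Fmod stood at 907 and 157 in KO AngII, and at 219 and 292 in WT AngII. Cells on both sides of the limit were few, and Col8a1, Ddah1 and Fmod ran in opposite directions across it in the 2 libraries.

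The label was read against markers proposed together with the rule, namely Postn, Col8a1, Ddah1 and Fmod, so their levels are not independent evidence. Postn (chromosome 3, 54361109 to 54391037, plus strand) encodes periostin, a matricellular protein that binds collagen. Its level was 2226 CPM in members and 253 in Cthrc1 = 0 cells of KO AngII, a log2 ratio of 3.14 (3.02 to 3.26). In WT AngII it was 2019 in members and 374 in Cthrc1 = 0 cells, a log2 ratio of 2.43 (2.34 to 2.53). Cthrc1 = 0 cells of the saline libraries had 152 (KO) and 62.8 (WT). Postn was not restricted to fibroblasts, since smooth muscle-gated cells had 2284 in KO AngII and 2609 in WT AngII.

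Col8a1 (chromosome 16, 57624258 to 57754737, minus strand), a short-chain collagen of remodelling vessels, stood at 772 CPM in members and 235 in Cthrc1 = 0 cells of KO AngII. In WT AngII it stood at 667 and 132. The log2 ratios were 1.72 (1.58 to 1.86) in KO AngII and 2.33 (2.17 to 2.50) in WT AngII, and saline Cthrc1 = 0 cells had 68.9 (KO) and 53.7 (WT). Unlike Postn, smooth muscle-gated AngII cells had only 31.6 (KO) and 42.7 (WT).

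Ddah1 (chromosome 3, 145758675 to 145894277, plus strand) breaks down asymmetric dimethylarginine, an inhibitor of nitric oxide synthases, and showed the widest separation of the 4. It stood at 251 CPM in members and 8.38 in Cthrc1 = 0 cells of KO AngII, a log2 ratio of 4.90 (4.29 to 5.59). In WT AngII the levels were 169 and 6.12, a log2 ratio of 4.79 (4.10 to 5.58). Saline Cthrc1 = 0 cells had 3.56 (KO) and 1.34 (WT), phagocyte-gated AngII cells had 7.57 (KO) and 6.85 (WT), and smooth muscle-gated AngII cells 1.39 (KO) and 1.10 (WT).

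Fmod (chromosome 1, 134037254 to 134048277, plus strand) encodes fibromodulin, a small proteoglycan that controls collagen fibril assembly. Its level was 536 CPM in members and 216 in Cthrc1 = 0 cells of KO AngII, and 391 and 105 in WT AngII. The log2 ratio was 1.31 (1.16 to 1.46) in KO AngII and 1.90 (1.72 to 2.09) in WT AngII. Saline Cthrc1 = 0 cells, however, had 260 (KO) and 271 (WT), so Fmod separated members from Cthrc1 = 0 cells within AngII libraries and was not low in resting fibroblasts.

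**Figure D2:**
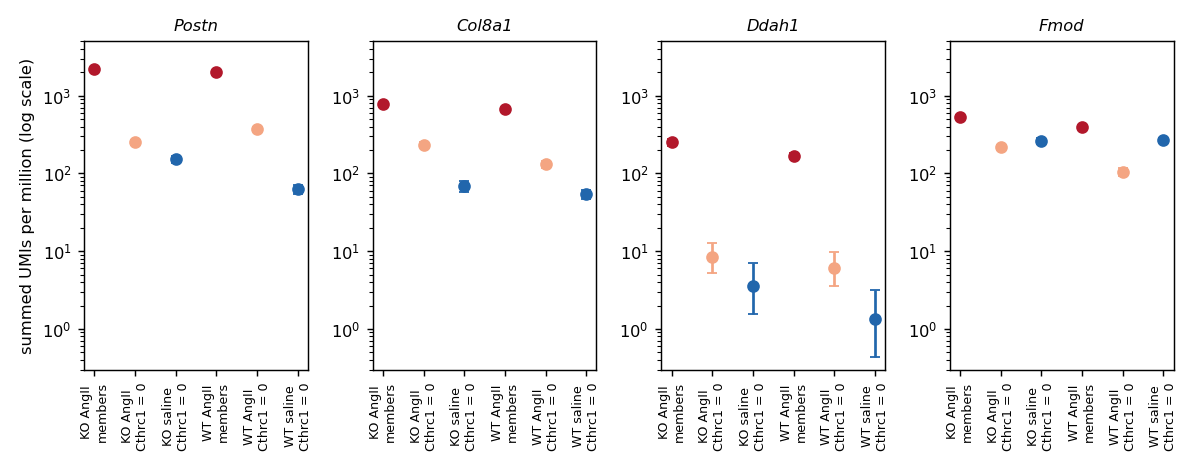
Levels of 4 marker genes in CPM, on a log scale, in members and Cthrc1 = 0 cells of the AngII libraries and in Cthrc1 = 0 cells of the saline libraries, KO to the left of WT. Points are summed UMIs and bars exact Poisson 95% intervals. Ddah1 stands at 251 and 169 in KO and WT AngII members, against 8.38 and 6.12 in Cthrc1 = 0 cells, whereas Fmod in saline cells (260 and 271) lies between members and AngII Cthrc1 = 0 cells.

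The windows upstream of Postn and Col8a1 are shown because both genes stood higher in members and each window held a searched motif. They are the 250 bases before the RefSeq start (GRCm38.p6) nearest to the GENCODE start, chr3:54360857-54361106 on the plus strand and chr16:57754738-57754987 on the minus strand. Capitals mark matches on either strand to AP-1 (TGANTCA), TEAD (GGAATG), SMAD (CAGACA), RUNX (TGTGGT) or the TATA box (TATAAA).
Postn: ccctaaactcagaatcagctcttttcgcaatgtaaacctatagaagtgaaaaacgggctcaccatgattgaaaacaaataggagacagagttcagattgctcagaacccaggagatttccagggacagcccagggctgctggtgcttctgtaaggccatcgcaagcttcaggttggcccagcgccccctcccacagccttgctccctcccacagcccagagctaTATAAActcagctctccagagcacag
Col8a1: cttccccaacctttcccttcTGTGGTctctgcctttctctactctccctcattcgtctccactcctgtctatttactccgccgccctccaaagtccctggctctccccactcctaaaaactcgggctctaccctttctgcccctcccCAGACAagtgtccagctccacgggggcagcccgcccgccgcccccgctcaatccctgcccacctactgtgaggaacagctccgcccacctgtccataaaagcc
The Postn window held TATAAA 26 to 21 bases before the start. The Col8a1 window held TGTGGT at 230 to 225 and CAGACA at 103 to 98 bases before the start. The Ddah1 and Fmod windows held none of these letters. Of 32851 promoter windows of this length in the table, 6.75% held the AP-1 letters, 12.6% TEAD, 17.1% SMAD, 14.0% RUNX and 12.4% the TATA box. The motifs overlapped nowhere in the printed windows, and a match is a description of letters only.

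Markers of fibroblasts and of other cell types were read in members. The 8 listed fibroblast genes, among them Col1a1, Col3a1, Pdgfra and Dpt, were all detected in members of both AngII libraries. Their summed level was 43478 CPM in KO AngII members and 47918 in WT AngII members, against 25274 and 24066 in Cthrc1 = 0 cells. No UMI of the lymphocyte or adipocyte lists was counted in members of either AngII library, and the neutrophil list had 0 in KO AngII and 1 in WT AngII. The deposited counts held only 3 of the 6 lymphocyte genes and 4 of the 5 neutrophil genes. Mononuclear phagocyte genes summed to 46.6 CPM in KO AngII members and 41.3 in WT AngII members, with Fcgr1 at 0 in KO AngII. Endothelial genes summed to 7.17 (1 of 8 genes detected) and 41.6 (6 of 8).

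Smooth muscle genes, 10 of 10 detected, summed to 1935 CPM in KO AngII members and 2557 in KO AngII Cthrc1 = 0 cells. In WT AngII they summed to 939 in members and 1281 in Cthrc1 = 0 cells. This list thus stood lower in members in both libraries and about 2 times higher in KO than in WT members. Saline Cthrc1 = 0 cells had 5128 (KO) and 1558 (WT). Listed chondrocyte genes summed to 501 in KO AngII members and 222 in Cthrc1 = 0 cells, and to 499 and 266 in WT AngII. Of the 8 chondrocyte genes 7 were detected in KO AngII members and 8 in WT AngII members. Pericyte and mural genes, 4 of 6 detected in members of each library, summed to 208 in KO AngII members and 342 in Cthrc1 = 0 cells, and to 293 and 423 in WT AngII, with Higd1b and Vtn at 0 in members. Schwann cell genes summed to 76.4 in KO AngII members (1 of 6 detected) and 51.4 in Cthrc1 = 0 cells, and to 85.7 (3 of 6) and 69.1 in WT AngII, with Sox10 at 0 in all 4 cell sets. Mesothelial genes summed to 1.19 in KO AngII members and 3.02 in WT AngII members. The part of these genes in other results was not tested.

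Across the transcriptome, few genes separated members from Cthrc1 = 0 cells in both AngII libraries. Of 6838 genes with at least 50 UMIs over both sets in each library, 71 (1.04%) were at least 2-fold higher in members in both libraries and 140 (2.05%) at least 2-fold lower. The sorting by Cthrc1 makes these counts a description. Cthrc1 = 0 cells were not state-gated, and 74.4% of them in KO AngII and 57.1% in WT AngII failed a state gate. Against the 85 (KO) and 144 (WT) Cthrc1 = 0 cells that passed, 74 genes were higher and 65 lower, of which 56 and 44 were the same genes. Those cells held 641507 (KO) and 1016099 (WT) UMIs, against 2624863 and 2779932 in all Cthrc1 = 0 cells. Fewer genes could thus reach the minimum, so the fall in lower genes is not read. With all Cthrc1-high cells in place of members, 90 genes were higher and 197 lower. Of the 71 and 140 genes, only 43 and 80 were among them. Median depths were 9550 UMIs in KO AngII members and 7001.5 in KO AngII Cthrc1 = 0 cells, and 8764.5 and 6997 in WT AngII.

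C1qtnf3, which encodes the secreted protein CTRP3, stood at 546 CPM in members and 8.76 in Cthrc1 = 0 cells of KO AngII, and at 470.1 and 2.16 in WT AngII. The log2 ratio was 5.96 (5.37 to 6.63) in KO AngII and 7.77 (6.64 to 9.22) in WT AngII. C1qtnf3 was not the product of a few cells, since its top 3 members held 14.7% of its UMIs in KO AngII and 14.1% in WT AngII. Saline Cthrc1 = 0 cells had 17.3 (KO) and 13.2 (WT), above the AngII Cthrc1 = 0 cells.

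Col11a1, a minor collagen that sets fibril diameter, stood at 275 CPM in members and 29.0 in Cthrc1 = 0 cells of KO AngII, and at 105 and 3.96 in WT AngII. Matn3, a cartilage matrilin, stood at 55.5 CPM in members and 1.52 in Cthrc1 = 0 cells of KO AngII, and at 25.3 and 0 in WT AngII, at least 23.5-fold higher in WT AngII members. Fbn2, a fibrillin of developing elastic fibres, stood at 39.4 CPM in members and 0 in Cthrc1 = 0 cells of KO AngII, and at 24.7 and 0.360 in WT AngII, at least 34.5-fold higher in KO AngII members. Bounds set the side at 0 to 3 UMIs. Tnmd, tenomodulin of tendon, stood at 88.4 CPM in members and 16.4 in Cthrc1 = 0 cells of KO AngII, and at 141 and 27.0 in WT AngII. Itm2a, a membrane protein known from differentiating cartilage and muscle, stood at 623 CPM in members and 49.5 in Cthrc1 = 0 cells of KO AngII, and at 507 and 43.5 in WT AngII. Every one of these stood higher in members in both libraries, and Matn3 is also one of the listed chondrocyte genes.

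The named set held the imprinted genes H19 and Mest, and both were higher in members. H19, a fetal non-coding RNA, stood at 338 CPM in members and 34.7 in Cthrc1 = 0 cells of KO AngII, and at 152 and 4.68 in WT AngII. Mest stood at 339.8 CPM in members and 7.62 in Cthrc1 = 0 cells of KO AngII, and at 25.05 and 1.08 in WT AngII. Mest was carried by few cells, and the top 3 members held 36.7% of its UMIs in KO AngII and 43.4% in WT AngII. For H19 the top 3 held 24.9% in KO AngII and 23.0% in WT AngII. The H19 level of KO AngII Cthrc1 = 0 cells rested on 91 UMIs, of which 1 cell held 44 and 3 cells 93.4%.

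Aspn, asporin, a collagen-binding proteoglycan, stood at 958 CPM in members and 123 in Cthrc1 = 0 cells of KO AngII, and at 1369 and 254 in WT AngII. Thbs2, a thrombospondin of collagen-rich matrix, stood at 379 CPM in members and 37.0 in Cthrc1 = 0 cells of KO AngII, and at 249.8 and 47.8 in WT AngII. Col8a2, the partner chain of Col8a1, stood at 63.3 CPM in members and 9.52 in Cthrc1 = 0 cells of KO AngII, and at 54.9 and 6.83 in WT AngII. Angptl1, a secreted angiopoietin-like protein, had a log2 ratio of 3.94 (3.32 to 4.63) in KO AngII and 3.54 (3.15 to 3.96) in WT AngII. Zfp185, a LIM-domain protein of the actin cytoskeleton, had 3.88 (2.56 to 5.57) in KO AngII and 3.14 (2.20 to 4.24) in WT AngII. All 5 stood higher in members in both libraries.

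Several genes lower in members were high in the saline fibroblasts. Gsn, gelsolin, which severs actin filaments, stood at 478 CPM in members and 3261 in Cthrc1 = 0 cells of KO AngII, and at 604 and 2252 in WT AngII. Saline Cthrc1 = 0 cells had 9111 (KO) and 7002 (WT). Cytl1, a secreted cytokine-like protein, stood at 1.79 CPM in members and 236 in Cthrc1 = 0 cells of KO AngII, and at 22.9 and 408 in WT AngII. Its log2 ratio was -7.04 (-9.32 to -5.49) in KO AngII and -4.15 (-4.51 to -3.82) in WT AngII, and the KO AngII members held 3 UMIs. Saline Cthrc1 = 0 cells had 1245 (KO) and 698 (WT). In WT AngII 1 member held 33 of the 76 Cytl1 UMIs of members, and 1 Cthrc1 = 0 cell held 481 of the 1134 UMIs (42.4%) of Cthrc1 = 0 cells.

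Rbp4, the retinol carrier, stood at 113 CPM in members and 805 in Cthrc1 = 0 cells of KO AngII, and at 67.3 and 392 in WT AngII. Hsd11b1, which regenerates active glucocorticoid, stood at 4.78 CPM in members and 33.5 in Cthrc1 = 0 cells of KO AngII, and at 5.73 and 39.9 in WT AngII. Smoc1, a secreted calcium-binding matrix protein, stood at 18.5 CPM in members and 131 in Cthrc1 = 0 cells of KO AngII, and at 19.0 and 106 in WT AngII. These 3 stood lower in members in both libraries. Mt2, a metallothionein, stood at 459 CPM in members and 2305 in Cthrc1 = 0 cells of KO AngII, and at 525 and 1835 in WT AngII. In Cthrc1 = 0 cells that passed the state gates Mt2 stood at 1313 (KO) and 934 (WT), so the difference was then smaller. The remaining named lower genes outside the inflammatory set were Lamc3, Tnnt2, Cp, Angpt2 and Cox4i2, with log2 ratios of -4.84 to -2.44 in KO AngII and -4.52 to -2.14 in WT AngII. For Tnnt2, 1 WT AngII Cthrc1 = 0 cell held 112 of the 173 UMIs (64.7%) of that side.

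Ccl2, Cxcl2 and Il6, cytokines of inflamed fibroblasts, and Irf1, an interferon response factor, were among the named lower genes, but the state gates bear on them. Ccl2 stood at 31.6 CPM in members and 711 in Cthrc1 = 0 cells of KO AngII, and at 32.3 and 586 in WT AngII. In state-gated Cthrc1 = 0 cells it stood at 87.3 (KO) and 18.7 (WT), so the WT AngII members were then the higher side. Cxcl2 stood at 20.9 CPM in members and 292 in Cthrc1 = 0 cells of KO AngII, and at 14.5 and 112 in WT AngII, with 21.8 (KO) and 17.7 (WT) in state-gated Cthrc1 = 0 cells. Il6 stood at 72.3 CPM in members and 376 in Cthrc1 = 0 cells of KO AngII, and at 35.6 and 138 in WT AngII, with 128 (KO) and 38.4 (WT) in the state-gated cells. Irf1 had a log2 ratio of -2.79 (-3.37 to -2.26) in KO AngII and -2.12 (-2.46 to -1.79) in WT AngII. Against state-gated Cthrc1 = 0 cells the Irf1 difference was smaller, at 18.5 CPM in members and 31.2 in those cells of KO AngII, and 28.7 and 44.3 in WT AngII. Against state-gated cells the differences in these cytokines were smaller or turned round.

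Gene lists were read as counts of genes at least 1.5-fold apart in the same direction in both AngII libraries. Over all 6838 genes, 185 (2.71%) were higher in members on this measure and 428 (6.26%) lower, with a median log2 ratio of -0.07 in each library. The lists were chosen with earlier results of these data known, and the genes counted are those that passed the UMI minimum.

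Fibril-forming collagens, the structural core of the adventitia, were higher in members as a group. Of 12 listed, 11 passed the minimum, 8 were higher and none lower, and the median log2 ratios were 0.98 (KO) and 1.16 (WT). Col1a1 stood at 11278 CPM in members and 4342 in Cthrc1 = 0 cells of KO AngII, and at 10494 and 3594 in WT AngII. Saline Cthrc1 = 0 cells had 1256 (KO) and 2041 (WT), below every AngII value. Col12a1, a collagen on fibril surfaces, had log2 ratios of 2.59 (KO) and 2.15 (WT). Col14a1, another collagen on fibril surfaces, was nearly level at 0.17 (KO) and 0.18 (WT). Network collagens differed: of 10, 1 was higher and 1 lower, and basement membrane Col4a6 had log2 ratios of -2.43 (KO) and -1.78 (WT).

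Of 22 enzymes that fold, trim and crosslink collagen, 6 were higher and 1 lower, with medians of 0.62 (KO) and 0.44 (WT). P4ha3, a prolyl hydroxylase subunit, stood at 93.2 CPM in members and 4.95 in Cthrc1 = 0 cells of KO AngII, and at 48.3 and 9.35 in WT AngII. Lox, lysyl oxidase, had log2 ratios of 0.91 (KO) and 1.29 (WT), and Loxl3 had 1.11 (KO) and 0.68 (WT). Pcolce2, an enhancer of procollagen trimming, ran the other way at -1.34 (KO) and -1.29 (WT).

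Elastin stood higher in members in WT AngII and level in KO AngII, a difference that was not tested. Eln stood at 5911 CPM in members and 5888 in Cthrc1 = 0 cells of KO AngII, and at 9184 and 4301 in WT AngII. Its log2 ratio was 0.01 in KO AngII and 1.09 in WT AngII. Over the elastic fibre list, 5 of 16 were higher and 2 lower, among the higher Mfap2, a microfibril protein, at 1.32 (KO) and 1.41 (WT). Efemp1, a fibulin, was lower at -2.77 (KO) and -1.48 (WT).

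Matricellular and injury glycoproteins had 8 of 16 higher and 2 lower, with medians of 0.56 (KO) and 0.67 (WT). Fn1, fibronectin, stood at 2494 CPM in members and 1010.3 in Cthrc1 = 0 cells of KO AngII, and at 3266 and 1277 in WT AngII. Thbs1, a thrombospondin that activates latent TGF-beta, had log2 ratios of 1.64 (KO) and 1.57 (WT). Spp1, osteopontin, was lower, since it stood at 48.4 CPM in members and 452 in Cthrc1 = 0 cells of KO AngII, and at 162 and 517 in WT AngII. Among proteoglycans 4 of 12 were higher and none lower.

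Growth factor and contractile genes did not follow the collagens. Of 24 TGF-beta and activin pathway genes, 1 was higher and 7 lower. The higher one was the ligand Tgfb3, which stood at 170.2 CPM in members and 75.4 in Cthrc1 = 0 cells of KO AngII, and at 214 and 76.3 in WT AngII. The ligand Tgfb1 had log2 ratios of -1.50 (KO) and -0.85 (WT), the activin subunit Inhba -1.70 (KO) and -2.24 (WT), and the feedback inhibitor Smad7 -1.32 (KO) and -0.72 (WT). The Cthrc1 = 0 cells compared here were not state-gated, and the part of the state gates in these ratios is not shown. Of 15 contractile genes 1 was higher and 2 lower. Acta2, smooth muscle actin and the usual myofibroblast marker, stood at 1153 CPM in members and 1301 in Cthrc1 = 0 cells of KO AngII, and at 543 and 644 in WT AngII. Palld, an actin scaffold, was the higher one, at 1.37 (KO) and 1.63 (WT).

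Of 16 metalloprotease and inhibitor genes 4 were higher and 1 lower, with the collagenase Mmp14 at log2 ratios of 2.13 (KO) and 1.39 (WT) and Adam12 at 1.70 (KO) and 1.97 (WT). Of 15 Wnt genes 2 were higher and none lower, with the inhibitor Sfrp1 at 1.44 (KO) and 1.31 (WT). Of 15 transcription factors 1 was higher, the tendon factor Scx, at 2.39 (KO) and 0.66 (WT), and 1 lower, Twist2, at -0.82 (KO) and -0.59 (WT). Of 21 resting fibroblast genes 1 was higher and 5 lower, with the progenitor marker Pi16 at -1.08 (KO) and -0.30 (WT). Of 15 growth factor and IGF genes 1 was higher and 3 lower, with Pdgfra, the fibroblast receptor, at -0.84 (KO) and -0.81 (WT). Of 23 secretory load genes none was 1.5-fold apart in both libraries.

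Immediate early and heat shock genes had none of 19 higher and 9 lower, with medians of -1.19 (KO) and -0.58 (WT). These genes are known to respond to enzymatic digestion, and Fos had log2 ratios of -0.84 (KO) and -0.04 (WT). The inflammatory list had none of 15 higher and 10 lower, with medians of -1.78 (KO) and -1.32 (WT). Against state-gated Cthrc1 = 0 cells the inflammatory medians were -0.73 (KO) and -0.19 (WT). Of 15 cell cycle genes none was higher and 2 lower, and of 10 lipid genes 1 was higher, Fabp5, at 1.55 (KO) and 1.82 (WT), and 3 lower. Of 13 glycolysis and hypoxia genes none was higher and 1 lower, and of 7 MHC class I genes none was higher and 1 lower.

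**Figure D3:**
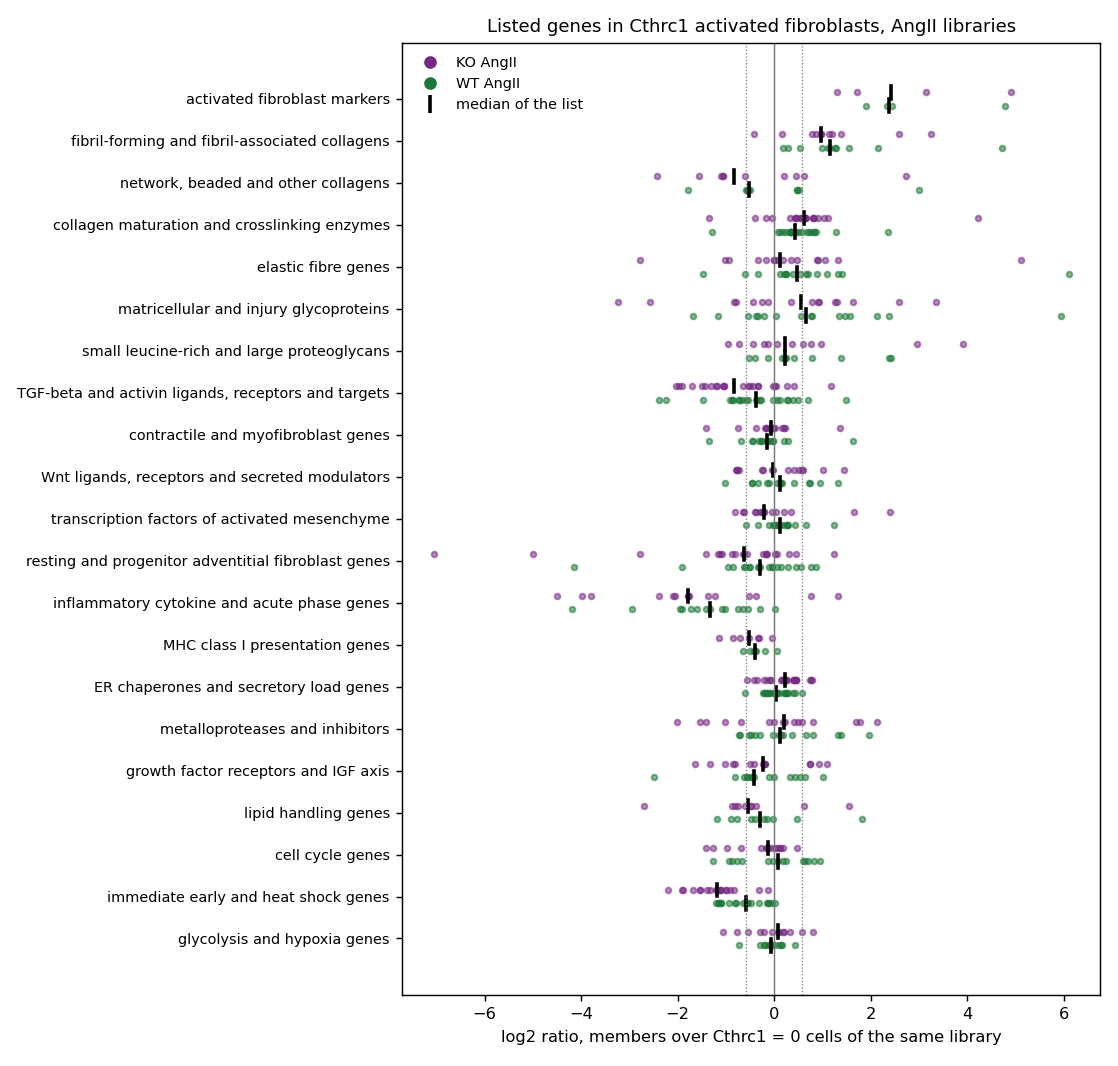
Log2 ratio of members over Cthrc1 = 0 cells for each listed gene that passed the UMI minimum, by list, KO AngII (purple) above WT AngII (green). Black bars are list medians, dotted lines mark 1.5-fold. Fibril-forming collagens have medians of 0.98 (KO) and 1.16 (WT), TGF-beta and activin genes -0.84 and -0.37, and the inflammatory list -1.78 and -1.32.

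To see whether levels ran with Cthrc1 or stood apart only in members, all fibroblast-gated AngII cells of at least 5000 UMIs were thinned to 5000, whatever their state gates. They were set in 5 bins of 0, 1 to 2, 3 to 5, 6 to 9, and at least 10 Cthrc1 UMIs, each with 181 to 445 cells. Postn stood at 283, 393, 704, 1019 and 2047 CPM from the lowest to the highest bin in KO AngII, and at 378, 549, 987, 1425 and 2391 in WT AngII. Every step up in Cthrc1 was a step up in Postn.

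Ddah1 stood at 17.7, 40.0, 99.5, 146 and 289 CPM in KO AngII, and at 6.57, 24.1, 69.8, 154 and 284 in WT AngII. C1qtnf3 stood at 23.2, 42.3, 92.0, 141 and 345 in KO AngII, and at 3.58, 43.6, 92.2, 281 and 709.7 in WT AngII. Both genes climbed bin by bin in each library. Gsn went down through the same bins, with 2977, 1227, 724, 559 and 441 in KO AngII, and 2225, 1568, 947, 688 and 446 in WT AngII. Cytl1 had 182, 15.4, 8.51, 2.47 and 0.608 in KO AngII, where the last bin was 1 UMI, and 276, 99.2, 10.9, 3.31 and 4.49 in WT AngII. Its last 2 WT AngII bins rested on 3 and 10 UMIs.

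Other genes graded less or not at all. Col1a1 had 5252, 7309, 9147, 9559 and 9418 CPM in KO AngII, with its highest value in the bin of 6 to 9, while in WT AngII each bin was above the one before, with 4262, 6518, 8632, 9635 and 11643. Acta2 had 1307, 1130.3, 1073, 1038 and 994 in KO AngII, and 577, 651, 495, 471 and 646 in WT AngII, with no steady direction in WT AngII. Ccl2 had 839, 1063, 1219, 1044 and 1004 in KO AngII and 527, 397, 767, 429 and 517 in WT AngII. Without the state gates Ccl2 thus had no steady relation to Cthrc1.

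**Figure D4:**
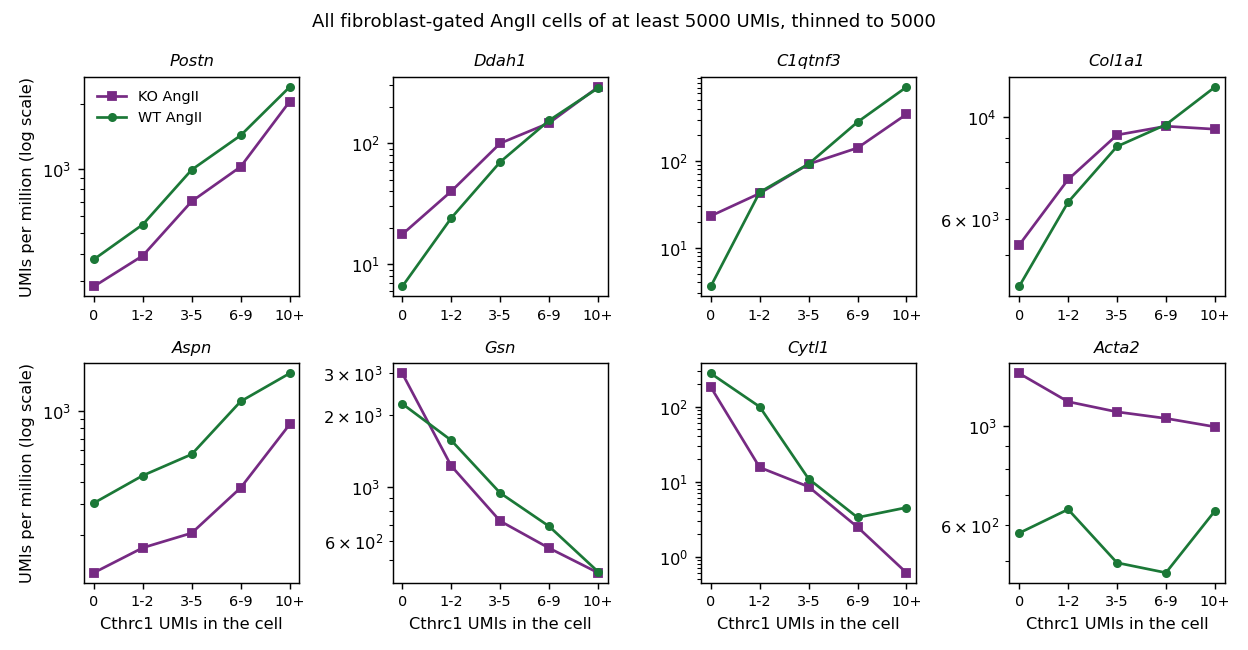
Levels in CPM (log scale) of 8 genes in fibroblast-gated cells thinned to 5000 UMIs, in bins of Cthrc1 UMIs from 0 to 10 or more, KO AngII (purple squares) and WT AngII (green circles). Postn, Ddah1, C1qtnf3 and Aspn climb through the bins, Gsn goes down through them, and Acta2 in WT AngII shows no steady direction.

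The 10 genes with the highest residual variance beyond depth in both libraries were Mgp, Eln, Col1a1, Cst3, Malat1, Col3a1, Col1a2, Fos, Sfrp2 and Postn, with values of 18.3 to 34.8 in KO AngII and 17.3 to 54.9 in WT AngII. The median gene had 1.18 in KO AngII (3809 genes) and 1.11 in WT AngII (6044 genes). Mgp, matrix Gla protein, an inhibitor of calcification, had 12.7, 56.1 and 236 UMIs per 10000 at the 10th, 50th and 90th percentile of KO AngII members. In WT AngII members it had 9.34, 67.5 and 280.2. Eln had 3.16, 30.8 and 153 in KO AngII members and 2.97, 59.4 and 268 in WT AngII members. The top 10% of members held 44.3% of Eln UMIs in KO AngII and 40.2% in WT AngII.

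Markers were also uneven. Postn had 0.703, 13.0 and 58.9 UMIs per 10000 at the same percentiles in KO AngII members and 1.22, 14.2 and 45.9 in WT AngII members. The top 10% of members held 51.9% of Ddah1 UMIs in KO AngII and 57.1% in WT AngII, and 48.1% and 58.5% of Fmod UMIs. All top 10% shares are of raw UMIs, so depth and low counts enter them, and no expected share was computed. Residual variances, which allow for depth, were 5.51 (KO) and 5.03 (WT) for Ddah1 and 9.17 and 12.6 for Fmod. Each was above that of the median gene.

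Over members, Col1a1 and Col1a2, which form type I collagen together, had a Spearman rho of 0.85 in KO AngII (162 cells) and 0.85 in WT AngII (342 cells). Ddah1 and Col8a1 had 0.48 and 0.54, and Mgp and Cst3 0.50 and 0.55. Cthrc1 itself had 0.39 and 0.43 with Postn, 0.29 and 0.33 with Ddah1, 0.07 and 0.14 with Fmod. Col1a1 had 0.12 and 0.33 with Cthrc1. Values were scaled by each cell's depth, and the cells of a library share its preparation, so these are descriptions.

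Members of the 2 genotypes were then set side by side. Of 5077 genes with at least 100 UMIs over both libraries' members, 42 (0.827%) were at least 2-fold higher in KO AngII than in WT AngII members and 108 (2.13%) at least 2-fold lower. Of the markers proposed with the rule, Postn had a log2 ratio of 0.14 (0.08 to 0.20), Col8a1 0.21 (0.11 to 0.31), Ddah1 0.57 (0.38 to 0.75), Fmod 0.45 (0.33 to 0.58), each under 2-fold and above 0.

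Interferon-stimulated genes, the products of the signalling that STING feeds, stood lower in KO AngII members. Of 27 listed, 26 were in the files, and with no UMI minimum these summed to 266 CPM (446 UMIs) in KO AngII members and 2175 CPM (7209 UMIs) in WT AngII members. Without Ifi27l2a, the gene with most UMIs, the other 25 summed to 153 in KO AngII members and 1177 in WT AngII members. All 26 had a lower CPM in KO AngII members, although several rested on few UMIs. Over the 5077 genes with at least 100 UMIs the median log2 ratio between these members was 0.01. The share of all genes with a lower CPM in KO was not counted without a UMI minimum. Counts of listed genes lower in KO, here and in the cell sets below, thus have no like background beside them. Only 12 passed the minimum of 100 UMIs, 7 of them with under 10 UMIs in KO AngII members and so through WT AngII, and no count over those 12 is read here. Ifit1, a sensor of foreign RNA, had 3 UMIs (1.79 CPM) in KO AngII members and 312 UMIs (94.1 CPM) in WT AngII members, a log2 ratio of -5.72 (-8.00 to -4.16). Isg15, a ubiquitin-like modifier, stood at 11.9 CPM in KO AngII members and 133 in WT AngII members, a log2 ratio of -3.48 (-4.21 to -2.84). Ifi27l2a stood at 113 in KO AngII members and 998 in WT AngII members. Bst2, tetherin, stood at 67.5 and 414. Rsad2, viperin, had 0 UMIs in KO AngII members and 103 in WT AngII members, at least 17.3-fold lower, and 3 WT AngII members held 79.6% of them.

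The same direction was seen in Cthrc1 = 0 cells. There the 26 genes summed to 380 CPM in KO AngII and 2264 in WT AngII, and all 26 had a lower CPM in KO AngII. Ifit1 stood at 2.67 CPM in KO AngII and 84.2 in WT AngII Cthrc1 = 0 cells, and Isg15 at 4.57 and 125. In saline Cthrc1 = 0 cells they summed to 796 in KO and 1297 in WT, with 22 lower and 4 higher in KO, and Ifit1 stood at 23.6 in KO saline and 65.0 in WT saline. Within WT AngII, Ifit1 stood at 94.1 in members and 84.2 in Cthrc1 = 0 cells. Rsad2 stood at 31.1 in members and 12.95 in Cthrc1 = 0 cells, a log2 ratio of 1.26 (0.70 to 1.85). This ratio rested on few cells, since 11 of 342 members and 15 of 336 Cthrc1 = 0 cells carried Rsad2. The top 3 members held 79.6% of its member UMIs.

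MHC class I genes, which interferon raises, stood lower in KO AngII members too. With no UMI minimum the 10 listed genes summed to 1379 CPM in KO AngII members and 3631 in WT AngII members, and all 10 had a lower CPM in KO AngII. In Cthrc1 = 0 cells they summed to 1666 in KO AngII and 4337 in WT AngII. In saline Cthrc1 = 0 cells they summed to 2722 in KO and 2851 in WT, with 1 lower and 8 higher in KO. B2m, the light chain of class I molecules, stood at 905 CPM in KO AngII members and 2298 in WT AngII members. H2-D1 stood at 209 in KO AngII members and 719.7 in WT AngII members. In Cthrc1 = 0 cells B2m stood at 936 in KO AngII and 2619 in WT AngII, and in saline Cthrc1 = 0 cells at 1431 in KO and 1693 in WT.

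**Figure D5:**
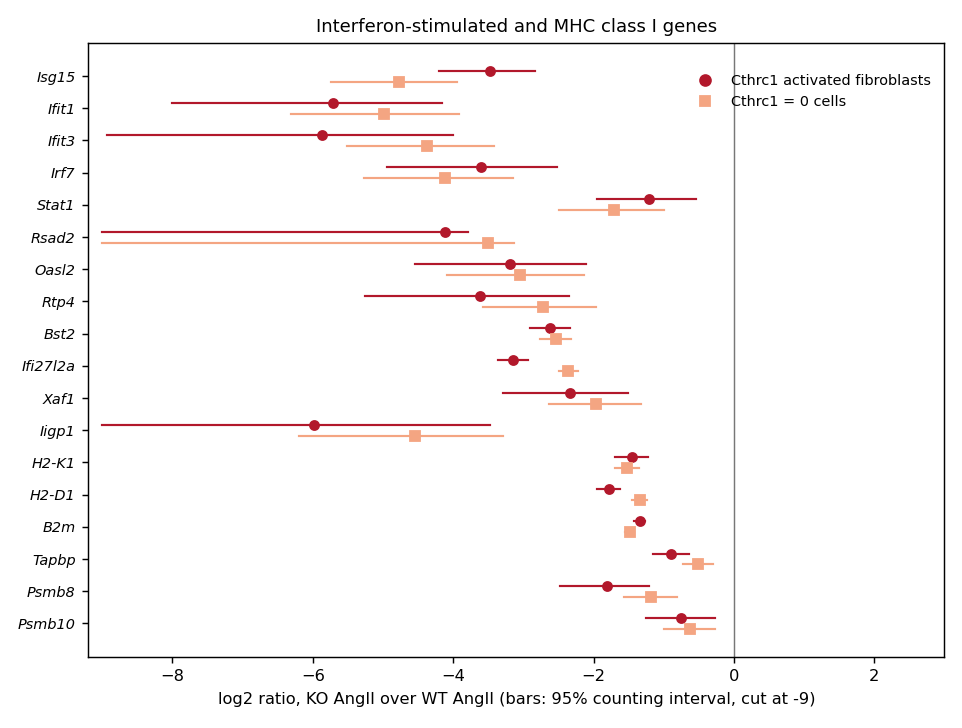
Log2 ratio of KO AngII over WT AngII for 12 interferon-stimulated and 6 MHC class I genes, in members (circles) and Cthrc1 = 0 cells (squares), with 95% counting intervals cut at -9. For Rsad2, with 0 UMIs in KO AngII in both cell sets, the point is a bound at 3 UMIs. The genes shown passed the minimum of 100 UMIs, 7 of the 12 with under 10 UMIs in KO AngII members. Ifit1 lies at -5.72 in members.

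The named genes higher in KO AngII members were Mest, Penk, Cdc20, Scx, Acan, Cenpa, Col11a1 and Actg1. Mest stood at 339.8 CPM in KO AngII members and 25.05 in WT AngII members, a log2 ratio of 3.76 (3.43 to 4.11), and at 7.62 and 1.08 in Cthrc1 = 0 cells. Scx, the tendon transcription factor, stood at 126 CPM in KO AngII members and 34.7 in WT AngII members, a log2 ratio of 1.86 (1.53 to 2.20), and at 24.0 and 21.9 in Cthrc1 = 0 cells. Acan, aggrecan of cartilage, stood at 97.3 CPM in KO AngII members and 29.9 in WT AngII members, and at 6.48 and 5.76 in Cthrc1 = 0 cells. Scx and Acan thus differed between genotypes in members and were close in Cthrc1 = 0 cells, a contrast that was not tested. Col11a1 stood at 275 CPM in KO AngII members and 105 in WT AngII members, and at 29.0 and 3.96 in Cthrc1 = 0 cells. In all Cthrc1-high cells, without the state gates, the log2 ratios of Scx, Acan and Col11a1 were 0.62, 0.13 and 0.45, each under 2-fold.

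Actg1, cytoplasmic actin, stood at 3612 CPM in KO AngII members and 1535 in WT AngII members, and at 3423 and 1687 in Cthrc1 = 0 cells. Saline Cthrc1 = 0 cells had 2351 (KO) and 1097 (WT). Cdc20, a gene of mitosis, stood at 53.1 CPM in KO AngII members and 11.5 in WT AngII members, and at 47.2 and 18.0 in Cthrc1 = 0 cells. Of its UMIs in KO AngII members, 3 cells held 55.1%. Cenpa, a centromere histone, stood at 100.3 CPM in KO AngII members and 32.6 in WT AngII members, and at 81.9 and 39.9 in Cthrc1 = 0 cells. Penk, proenkephalin, rested on few cells. It stood at 123 CPM in KO AngII members and 13.3 in WT AngII members, and 1 KO AngII member held 81 of its 206 UMIs. Contractile genes had a median log2 ratio of 0.70 over 14 genes in members, with 2 at least 2-fold higher in KO AngII, and 0.46 in Cthrc1 = 0 cells. In saline Cthrc1 = 0 cells the contractile median of KO over WT was 1.23, so this difference was not particular to AngII or to members. Resting fibroblast genes had a median of -0.83 over 18 genes in members, with 5 at least 2-fold lower, and -0.58 in Cthrc1 = 0 cells. Their median in saline Cthrc1 = 0 cells was 0.12.

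Among the other named genes lower in KO AngII members, 1 cell decided Otor. It had 0 UMIs in KO AngII members and 391 in WT AngII members, but 390 of these were in 1 cell. Igfbp3, a carrier of insulin-like growth factors, stood at 3.58 CPM in KO AngII members and 48.6 in WT AngII members, where 3 cells held 52.8% of its UMIs. Ifit3 stood at 1.19 CPM in KO AngII members and 70.0 in WT AngII members. Iigp1, an interferon-inducible GTPase, stood at 0.597 CPM in KO AngII members and 37.7 in WT AngII members. In KO AngII members Ifit3 rested on 2 UMIs and Iigp1 on 1.

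Cthrc1-high cells that failed a state gate carried the markers too, so the markers do not single out the members. In KO AngII, Postn stood at 2226 CPM in members and 962 in the 1001 Cthrc1-high cells that failed. For WT AngII the levels were 2019 in members and 1775 in the 605 that failed. Col8a1 stood at 772 in members and 758 in failing cells of KO AngII, and at 667 and 745 in WT AngII. Ddah1 stood at 251 and 168 in KO AngII and at 169 and 220.2 in WT AngII. Fmod stood at 536 and 308 in KO AngII and at 391 and 287 in WT AngII. Of these 8 comparisons only Postn in KO AngII reached 2-fold. Named genes higher in members were counted in failing cells too. C1qtnf3 stood there at 86.2 in KO AngII and 383 in WT AngII, and H19 at 142 and 182. Of 9378 genes compared, 9 were at least 2-fold higher in members than in failing cells in both libraries, and 55 lower. Mest was among the 9, at 37.3 (KO) and 6.39 (WT) in failing cells.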

How the data were processed

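Per the labels' protocols, fat was removed from thoracic aortas of 3 mice a group, cells were sorted for viability with DAPI and captured with the 10x 3′ v3 kit. The authors deposited raw UMI counts per gene and cell with no normalization; per the submitters' processing notes, Cell Ranger and the mm10 build were used. All 17524 genes and all deposited cells were used. Cells were gated on raw counts, and no doublet caller was run. Counts were summed over cells and scaled to the total (CPM); ratios have exact conditional intervals, shares exact Clopper-Pearson intervals. A side at 0 was set to 3 UMIs. Residual variances used an overdispersion of 100. Members and gene lists were chosen with earlier results of these data known. Named genes were the 15 higher and 15 lower in members and the 8 higher and 8 lower in KO members by the interval end nearest 0, without gate, mitochondrial, ribosomal, predicted and sex-linked marker genes; for lists, examples were to be the highest and lowest ratios over both libraries, and other listed genes named were chosen after their values were seen. Gates, depths, comparison cells, scalings and UMI minimums were varied. The procedure was tested on simulated data. Python 3.11.15, numpy 2.4.6, scipy 1.17.1 and pandas 2.3.3 were used. Gene positions are GENCODE vM21 (GRCm38), and upstream windows are from RefSeq.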

Additional observations from a re-analysis of the deposited data

Results flagged for a closer look

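For 3 genes members and Cthrc1 = 0 cells differed at least 2-fold in opposite directions in the 2 genotypes, and the difference between genotypes was not tested. Penk had a log2 ratio of 1.57 (1.22 to 1.92) in KO AngII and -1.08 (-1.65 to -0.53) in WT AngII, a difference of 2.65, with 39.3% of its KO AngII member UMIs in 1 cell. Hp, haptoglobin, had 1.06 (0.52 to 1.60) in KO AngII and -3.31 (-4.00 to -2.68) in WT AngII, a difference of 4.36; it stood at 41.2 CPM in members and 19.8 in Cthrc1 = 0 cells of KO AngII, and at 6.94 and 68.7 in WT AngII, where 1 WT AngII cell held 60.2% of the UMIs. Hist1h2ap, a histone of dividing cells, had -1.53 (-2.25 to -0.87) in KO AngII and 1.86 (1.41 to 2.32) in WT AngII, a difference of -3.38, and 3 cells held 63.2% of its WT AngII member UMIs. Among KO AngII Cthrc1 = 0 cells, 1 cell held 47.1% of the Hist1h2ap UMIs and 3 cells 74.0%. In state-gated Cthrc1 = 0 cells Hp stood at 18.7 CPM (KO) and 8.86 (WT), Penk at 70.1 and 10.8, and Hist1h2ap at 81.1 and 9.84. Against these cells WT AngII members were less than 2-fold lower for Hp. For Penk, at 13.3 in WT AngII members, they were the higher side. Hist1h2ap kept its opposite directions.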

How the results depend on the processing

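No paired analysis was possible because each group is 1 library. Member shares in KO AngII were 10.3% with Cthrc1 of at least 3, 6.16% with at least 10, 62.8% without the state gates, and 13.9% and 11.8% at 5000 and 3000 UMIs. In WT AngII they were 24.5%, 14.7%, 56.6% and 26.1% (5000 UMIs), and in WT saline 1.09% and 0.0988% for the 2 minimums and 1.26% at 5000 UMIs. Genes higher and lower in members numbered 34 and 58 with a minimum of 200 UMIs, 222 and 398 with none, 135 and 463 in KO AngII alone and 149 and 270 in WT AngII alone; 65 were lower against state-gated Cthrc1 = 0 cells. Genes higher and lower in KO AngII members numbered 164 and 458 without the state gates, 15 and 41 with a minimum of 300 UMIs, and 566 and 1110 with none. How many genes passed the minimum can differ between settings and is not given, so these gene counts cannot be read as shares. The log2 ratio of Ccl2 was 0.77 in KO AngII without the state gates and 0.79 in WT AngII against state-gated cells, and that of Cxcl2 0.56 in WT AngII without the gates. Fmod in the top bin of KO AngII was 1.19 above the lowest at 3000 UMIs. List medians kept direction and side of 1.5-fold in 205 settings, 8 passed it and 7 no longer did. Counts under TMM and median-of-ratios scaling stayed within 1.5 times. Causes were not tested. Depth limits genes under about 50 UMIs.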
